A study of Mus musculus with 12 samples.

Results

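The 10 genes described here are regulators and non-glycolytic targets of the hypoxia-inducible factor (HIF): Hif1a, Egln1, Egln3, Kdm3a, Vegfa, Adm, Bnip3, Bnip3l, Ndrg1 and Ankrd37. They were taken by name, by a rule that uses no measured value, from the 21834 genes of the count table, although earlier results of these data were known when they were chosen, and each of the 10 names was found once. The cells were BV2, an immortalized mouse microglial line, selected once with puromycin for a lentiviral pLKO.1 vector, whose shRNA was a control (shCtrl) or targeted Anxa2 (shAnxa2). Anxa2 encodes annexin A2, a calcium-dependent membrane-binding protein. Each line was left untreated (CTRL) or taken through oxygen-glucose deprivation and reoxygenation (OGD/R), a culture model of ischemia and reperfusion. The 4 groups, shCtrl-CTRL, shCtrl-OGDR, shAnxa2-CTRL and shAnxa2-OGDR, had 3 RNA-seq libraries each. The OGDR groups spent 4 h in glucose-free medium at 1% O2, followed by 12 h of reoxygenation in the sample labels and by a longer time in the study's methods, so RNA was taken after oxygen and glucose had been restored. The sample names give a single line for each shRNA, and properties of a line cannot be told apart from an effect of the knockdown. The deposited counts, however, name the control libraries shCTL when untreated and shCTL1-OGDR after OGD/R. Whether both come from the same control line was not tested, and this bears on each OGD/R change in shCtrl cells.

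HIF is a dimer of an oxygen-labile α subunit, such as HIF-1α encoded by Hif1a, and a stable β subunit encoded by Arnt. In oxygenated cells prolyl hydroxylases of the EGLN family mark HIF-1α for VHL-dependent degradation, so the protein is controlled mainly after translation, and the mRNA of Hif1a is a poor guide to HIF activity. When oxygen falls, the dimer binds the core motif RCGTG, where R is A or G, in hypoxia response elements. Its targets serve angiogenesis, removal of mitochondria, glycolysis and, through EGLN enzymes, its own restraint, and in myeloid cells HIF-1α is also raised by inflammatory signals.

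The promoter windows below are shown because most of the 10 genes moved together, and because Hif1a, which moved little, carries the same core letters. The RefSeq windows on GRCm38.p6, from 250 bases before to 50 bases after a transcript start, were present for 8 of the 10 genes, and Bnip3l and Ndrg1 had none. ACGTG and GCGTG were searched on both strands, where CACGTG counts once per strand. At least 1 window of each of the 8 genes held a match, in 8 of their 11 windows, against 43.8% of all 32851 windows of the same length with either motif. That share is per window and not per gene. Window 1 of Vegfa (chr17:46032328-46032627, minus strand) held 0 matches, and those of Vegfa lay in its window 2 (46025114-46025413), which is downstream. Windows 2 and 3 of Kdm3a also held 0. Of all windows 19.6% held ACGTG, 32.4% held GCGTG and 20.6% held at least 2 matches of either kind. Matches, on either strand, are in capitals in the sequences, which are printed 5′ to 3′ on the strand of the gene.
Bnip3, chr7:138909457-138909756, minus strand, 5 matches: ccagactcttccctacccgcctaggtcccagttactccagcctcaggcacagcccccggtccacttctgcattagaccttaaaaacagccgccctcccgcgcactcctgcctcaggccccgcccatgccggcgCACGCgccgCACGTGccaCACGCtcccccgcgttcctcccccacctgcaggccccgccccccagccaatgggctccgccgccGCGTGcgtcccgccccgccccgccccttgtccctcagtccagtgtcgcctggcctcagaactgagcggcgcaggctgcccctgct
Ankrd37, chr8:45999801-46000100, minus strand, 4 matches: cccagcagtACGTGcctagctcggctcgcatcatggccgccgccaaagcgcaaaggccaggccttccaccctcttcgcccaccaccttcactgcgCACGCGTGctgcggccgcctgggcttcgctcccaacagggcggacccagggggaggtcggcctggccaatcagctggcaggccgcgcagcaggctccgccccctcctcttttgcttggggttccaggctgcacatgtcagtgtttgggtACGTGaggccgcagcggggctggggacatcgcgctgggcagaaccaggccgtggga
Egln3, chr12:54203825-54204124, minus strand, 1 match: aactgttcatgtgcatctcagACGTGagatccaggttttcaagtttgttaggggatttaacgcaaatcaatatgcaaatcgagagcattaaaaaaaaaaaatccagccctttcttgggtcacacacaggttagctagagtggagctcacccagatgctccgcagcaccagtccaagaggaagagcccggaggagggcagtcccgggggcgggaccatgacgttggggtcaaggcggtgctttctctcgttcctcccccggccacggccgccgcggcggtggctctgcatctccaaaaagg
Hif1a, chr12:73907617-73907916, plus strand, 3 matches: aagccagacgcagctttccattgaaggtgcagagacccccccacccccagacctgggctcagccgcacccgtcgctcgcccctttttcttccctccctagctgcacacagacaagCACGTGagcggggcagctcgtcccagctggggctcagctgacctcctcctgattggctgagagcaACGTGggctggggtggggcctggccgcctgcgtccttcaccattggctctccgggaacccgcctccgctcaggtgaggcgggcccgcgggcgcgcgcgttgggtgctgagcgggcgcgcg
The Bnip3 matches began at -117, -108, -107, -99 and -35 relative to the start. A match is a description of letters and no measurement of HIF binding.

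Total counts ranged from 19521877 to 27288843 per library, and levels are given in CPM, counts scaled to a common library size after TMM normalization. The knockdown was visible in each library: Anxa2 lay at 34.95 to 44.4 CPM in shAnxa2-CTRL and at 18.2 to 20.6 CPM in shAnxa2-OGDR, against 164.5 to 177 CPM in shCtrl-CTRL and 250.8 to 294 CPM in shCtrl-OGDR. A second label field, for cell type, goes against the sample names in shCtrl-OGDR and shAnxa2-CTRL, and groups here follow the names. Anxa2 itself rose with OGD/R in shCtrl cells (log2 0.70, adjusted p = 1.21e-09, edgeR) and fell in shAnxa2 cells (log2 -1.04, adjusted p = 3.05e-10, edgeR). Its low level marks both shAnxa2 groups and so does not check which of them was treated. Whether the CTRL and OGDR labels of the shAnxa2 line are as given was not tested, and an exchange would reverse the sign of each OGD/R change in that line and alter each comparison that involves it. Labels name no batch, and any that coincided with a group would be inseparable from it. All 12 microglial markers examined passed the filter, and their summed level was 1870 to 2010 CPM in shCtrl-CTRL, 1730 to 1870 in shCtrl-OGDR, 1600 to 1680 in shAnxa2-CTRL and 1780 to 1810 in shAnxa2-OGDR. Markers of astrocytes, neurons, oligodendrocytes, endothelium and fibroblasts summed to at most 0.97, 1.33, 6.61, 2.09 and 0.376 CPM, with Aqp4, Snap25, Syt1, Mog and Dcn at 0. The share of counts on mitochondrial genome genes was lower in shCtrl-OGDR (0.2505% to 0.2721%) and shAnxa2-CTRL (0.272% to 0.286%) than in shCtrl-CTRL (0.402% to 0.472%) and shAnxa2-OGDR (0.331% to 0.38%). The summed endothelial markers followed the same split, at 0.458 to 0.978, 0.587 to 1.23, 1.58 to 1.72 and 1.67 to 2.09 CPM for shCtrl-OGDR, shAnxa2-CTRL, shCtrl-CTRL and shAnxa2-OGDR. That split was of Cdh5 alone, with means of 0.211, 0.504, 1.21 and 1.63 CPM in the same order. Pecam1 means went the other way (0.455, 0.439, 0.293 and 0.277 CPM), and Cldn5, at most 0.129 CPM in group means, did not follow the split. The part of either measure in the results below was not tested. In bulk RNA, fewer cells expressing a gene and less RNA per cell cannot be told apart.

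OGD/R moved most of these genes up in shCtrl cells and down in shAnxa2 cells. In shCtrl cells Ndrg1, Egln3, Bnip3, Vegfa, Bnip3l, Ankrd37 and Egln1 rose, by 1.48-fold to 6.63-fold, and none of the 10 fell. In shAnxa2 cells the same 7 genes and Hif1a fell, and none rose. The plot of changes shows the opposite signs gene by gene. A call is an adjusted p under 0.05 from the quasi-likelihood test of edgeR, adjusted by Benjamini-Hochberg over 11626 genes. These p-values weigh a difference against the spread between libraries within groups, estimated in 1 model over the 12 libraries. They do not cover a spread between lines, since the sample names give a single line for each shRNA. Of the 10 genes, 9 were tested, since Adm was below 0.5 CPM in all libraries but 1, and Egln3 passed that filter only through shCtrl-OGDR.

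**Figure D1:**
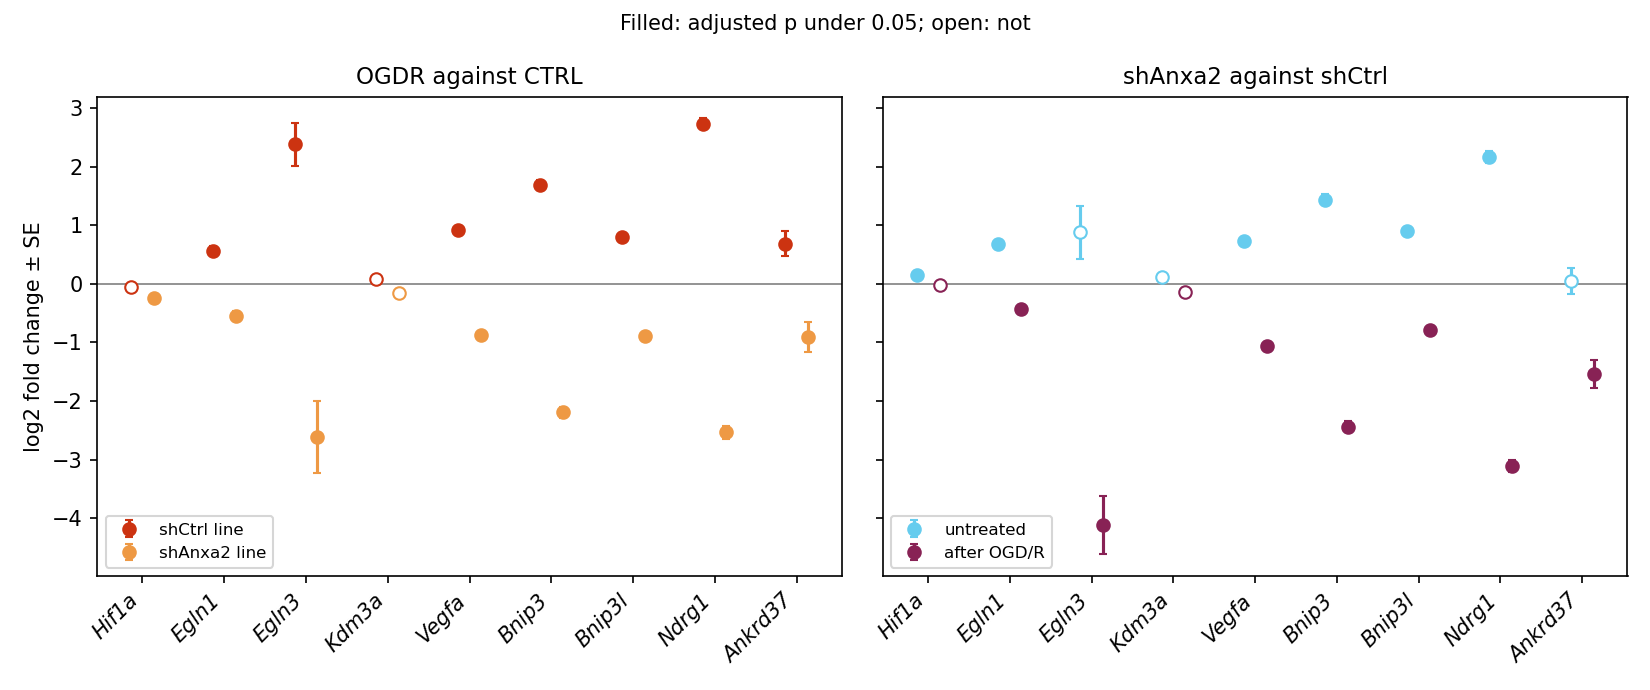
Log2 fold changes with SE of the 9 tested genes, for OGDR against CTRL in each line (left) and for shAnxa2 against shCtrl in each state (right); filled points have an adjusted p under 0.05 (edgeR). For OGD/R, 7 genes lie above 0 with filled points in the shCtrl line and 8 lie below 0 with filled points in the shAnxa2 line.

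The 7 of 10 genes called higher after OGD/R in shCtrl cells compare with 32.4% of all tested genes called higher, and the 0 called lower with 31.0% called lower. With a fold of at least 1.5 added to the call, 6 of 10 were higher against 11.8% of all tested genes, and 0 lower against 8.27%. In shAnxa2 cells 8 of 10 were called lower and 0 higher, where 26.8% of tested genes were called lower and 28.2% higher. Adding the 1.5-fold limit left 6 of 10 lower against 7.88%, and 0 higher against 4.17%. The 3 OGDR libraries lay wholly above the 3 CTRL libraries for 6 genes in shCtrl cells (34.7% of tested genes, with 33.3% wholly below), and wholly below them for 9 genes in shAnxa2 cells (28.8%, with 30.1% wholly above). The median log2 fold change of the 9 tested genes was 0.79 in shCtrl cells and -0.89 in shAnxa2 cells, beside 0.00448 and 0.00436 over all tested genes, and without Egln3 it was 0.74 and -0.88. The counts of higher genes in shCtrl cells and of lower genes in shAnxa2 cells include Egln3. It passed the filter only through shCtrl-OGDR, so that filter favoured its rise in shCtrl cells.

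Read from the same 4 groups, the knockdown contrast changed sign with treatment. Its change with treatment is the same quantity as the difference between lines in the OGD/R change, and is no separate result. Between untreated lines, 6 of 10 genes were higher in shAnxa2 cells (29.5% of tested genes were called higher) and 0 were lower (29.7%). After OGD/R, 7 of 10 were lower in shAnxa2 cells (34.2% called lower) and 0 were higher (33.8%). With the 1.5-fold limit these counts were 5 higher and 0 lower between untreated lines, against 9.77% and 5.81%, and 0 higher and 6 lower after OGD/R, against 11.8% and 14.4%. The shAnxa2 libraries lay wholly above the shCtrl libraries for 7 genes when untreated (31.6%) and wholly below them for 7 genes after OGD/R (35.3%, with 34.6% wholly above). The difference between lines in the OGD/R change, the interaction, was itself tested, and 8 of 10 genes were called with a more negative change in shAnxa2 cells (35.1% of tested genes were called in that direction, 34.9% in the other). With the 1.5-fold limit this was 7 of 10, against 22.0% in that direction and 19.8% in the other. The median interaction was -1.68 on the log2 scale for the 9 genes, against -0.00608 for all tested genes, and without Egln3 it was -1.63. The counts of lower genes after OGD/R and of the interaction include Egln3. Both involve shCtrl-OGDR, the only group through which it passed the filter.

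**Figure D2:**
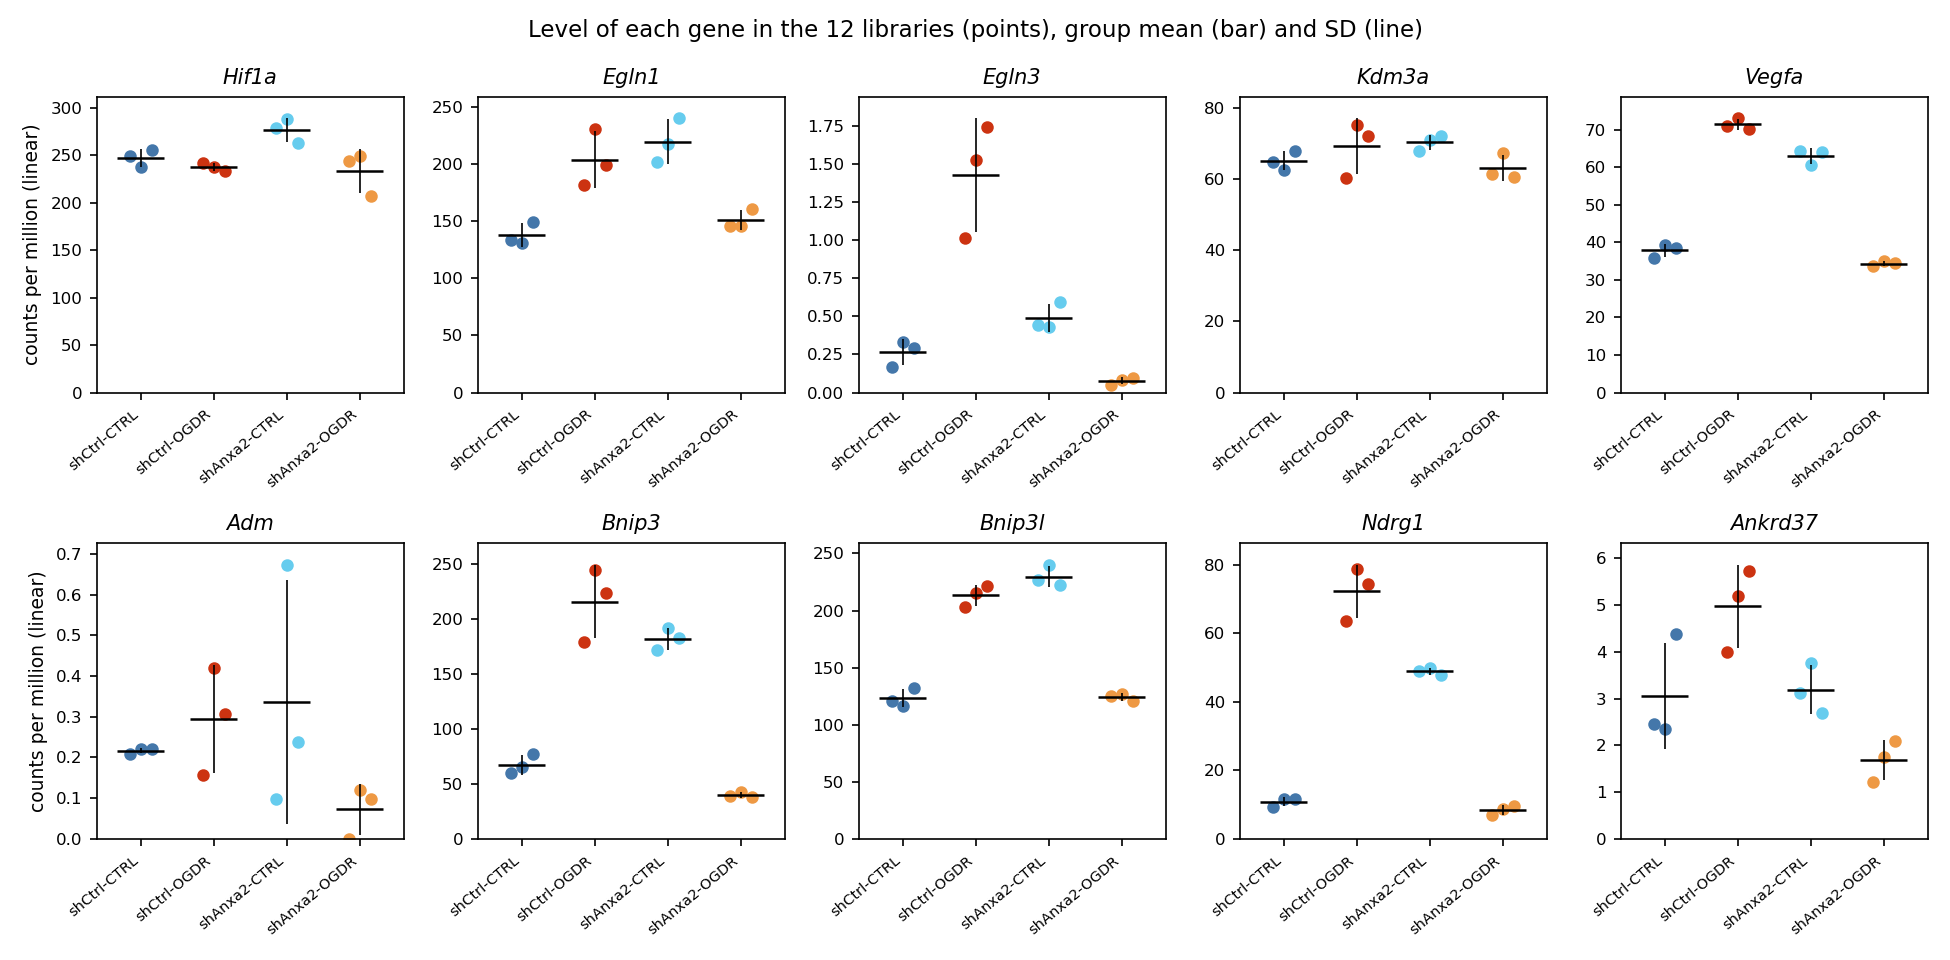
CPM of each of the 10 genes in the 12 libraries (points; linear axes from 0, scaled per gene), with the group mean (bar) and SD (line). Vegfa, Bnip3, Bnip3l, Ndrg1 and Egln1 are high in shCtrl-OGDR and shAnxa2-CTRL and low in shCtrl-CTRL and shAnxa2-OGDR, whereas Hif1a and Kdm3a stay within a narrow band.

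Hif1a (ENSMUSG00000021109; mm39 chromosome 12, 73948149 to 73994304, plus strand) encodes the oxygen-labile α subunit. Its level was 249, 237 and 256 CPM in shCtrl-CTRL, 242, 237 and 233 in shCtrl-OGDR, 278, 288 and 263 in shAnxa2-CTRL, and 244, 249.7 and 207 in shAnxa2-OGDR. The untreated shAnxa2 libraries were above those of all other groups, and the other 3 groups overlapped. OGD/R lowered Hif1a in shAnxa2 cells by a log2 fold change of -0.24 (SE 0.0586, adjusted p = 0.00116, edgeR). In shCtrl cells the log2 fold change was -0.06 (SE 0.0584, adjusted p = 0.382, edgeR), with an approximate 95% interval from -0.17 to 0.05. Untreated shAnxa2 cells had 1.12-fold more Hif1a mRNA than shCtrl cells (adjusted p = 0.0221, edgeR). That call was lost without shCtrl-CTRL replicate 2 (adjusted p = 0.0846), shAnxa2-CTRL replicate 1 (0.0522) or shAnxa2-CTRL replicate 2 (0.0974), each by edgeR. The interaction of -0.18 (SE 0.0827, adjusted p = 0.0529, edgeR) was just outside the call, and passed it in 6 of the 7 other settings that keep all libraries, including DESeq2 (adjusted p = 0.0496). Another gene that overlaps Hif1a, Snapc1l, had no counts in any library.

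Egln1 (ENSMUSG00000031987; chromosome 8, 125635326 to 125676063, minus strand) encodes PHD2, the main prolyl hydroxylase of HIF-1α and itself a HIF target. Its level was 133, 131 and 149.5 CPM in shCtrl-CTRL, 182, 230.5 and 199 in shCtrl-OGDR, 201, 218 and 239.9 in shAnxa2-CTRL, and 145.5, 145.7 and 161 in shAnxa2-OGDR. The 6 libraries of shCtrl-OGDR and shAnxa2-CTRL were all above the other 6. Egln1 rose 1.48-fold with OGD/R in shCtrl cells (log2 0.57, SE 0.0733, adjusted p = 3.59e-07, edgeR). In shAnxa2 cells it fell (log2 -0.54, SE 0.0735, adjusted p = 1.15e-06, edgeR). The interaction was -1.11 (SE 0.104, adjusted p = 1.07e-09, edgeR). In the order of group means, shAnxa2-CTRL and shCtrl-OGDR at the top were not told apart (adjusted p = 0.238, edgeR), nor were shAnxa2-OGDR and shCtrl-CTRL at the bottom (adjusted p = 0.174, edgeR).

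Egln3 (ENSMUSG00000035105; chromosome 12, 54225767 to 54250646, minus strand) encodes PHD3, a further prolyl hydroxylase whose mRNA is known as a strongly hypoxia-responsive transcript. It was counted 4, 9 and 8 times in shCtrl-CTRL, 26, 40 and 34 times in shCtrl-OGDR, 9, 9 and 15 times in shAnxa2-CTRL, and 1, 2 and 2 times in shAnxa2-OGDR. The shCtrl-OGDR libraries were highest and the shAnxa2-OGDR libraries lowest, and in CPM no groups overlapped. In shCtrl cells the rise was 2.38 on the log2 scale (SE 0.365, adjusted p = 4.21e-06, edgeR). In shAnxa2 cells the change was -2.62 (SE 0.615, adjusted p = 0.000903, edgeR), which rests on 33 counts before and 5 after. The ratio of the summed counts of shAnxa2-CTRL over shAnxa2-OGDR, scaled by library size, was 6.5 with an exact 95% interval from 2.52 to 21.3, which covers counting error only. After OGD/R the ratio of shCtrl over shAnxa2 was 18.3 (7.6 to 57.7). The interaction was -4.99 (SE 0.704, adjusted p = 9.25e-07, edgeR). Egln3 passed the filter only through shCtrl-OGDR, its highest group. That filter favoured the rise in shCtrl cells, the difference between lines after OGD/R and the interaction.

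Kdm3a (ENSMUSG00000053470; chromosome 6, 71565956 to 71609974, minus strand) encodes a histone H3 lysine 9 demethylase induced by hypoxia in many cells. Its level was 64.65, 62.65 and 67.99 CPM in shCtrl-CTRL, 60.4, 75.1 and 72.2 in shCtrl-OGDR, 67.95, 70.9 and 71.99 in shAnxa2-CTRL, and 61.5, 67.3 and 60.5 in shAnxa2-OGDR. The group means spanned 63.1 to 70.3 CPM, and shAnxa2-OGDR lay below shAnxa2-CTRL without overlap while the other groups overlapped. No comparison of single groups passed the test, and the nearest was OGD/R in shAnxa2 cells (log2 -0.15, SE 0.0675, adjusted p = 0.0552, edgeR), which was called in 6 of the 8 settings that keep all libraries. For OGD/R in shCtrl cells the log2 fold change was 0.09 with an approximate 95% interval from -0.04 to 0.22, and without shCtrl-OGDR replicate 1 it was 0.19 and called (adjusted p = 0.0114, edgeR). The interaction was called at -0.24 (SE 0.0948, adjusted p = 0.0262, edgeR). Without shCtrl-OGDR replicate 2 the interaction was -0.18 (adjusted p = 0.107), and the call was also lost without shCtrl-CTRL replicate 1 (0.0505), shCtrl-OGDR replicate 3 (0.0649), shAnxa2-CTRL replicate 3 (0.0525) or shAnxa2-OGDR replicate 1 (0.0572), each by edgeR. Of the paralogs, Kdm3b changed by 0.05 (adjusted p = 0.418) and Jmjd1c by -0.20 (adjusted p = 0.000496) with OGD/R in shCtrl cells, by edgeR on the log2 scale.

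Vegfa (ENSMUSG00000023951; chromosome 17, 46327919 to 46343295, minus strand) encodes the principal angiogenic ligand of this family. Its level was 35.8, 39.35 and 38.4 CPM in shCtrl-CTRL, 71.1, 73.1 and 70.3 in shCtrl-OGDR, 64.5, 60.7 and 64.1 in shAnxa2-CTRL, and 33.6, 35.1 and 34.4 in shAnxa2-OGDR. The 4 groups did not overlap, and replicates lay within a few CPM of each other. The interaction was -1.79 (SE 0.0795, adjusted p = 1.27e-15, edgeR). The neighbours at the bottom of the order, shCtrl-CTRL and shAnxa2-OGDR, differed by -0.14 for shAnxa2-OGDR on the log2 scale (adjusted p = 0.0603, edgeR), and those at the top by -0.18 for shAnxa2-CTRL against shCtrl-OGDR (adjusted p = 0.00878, edgeR).

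**Figure D3:**
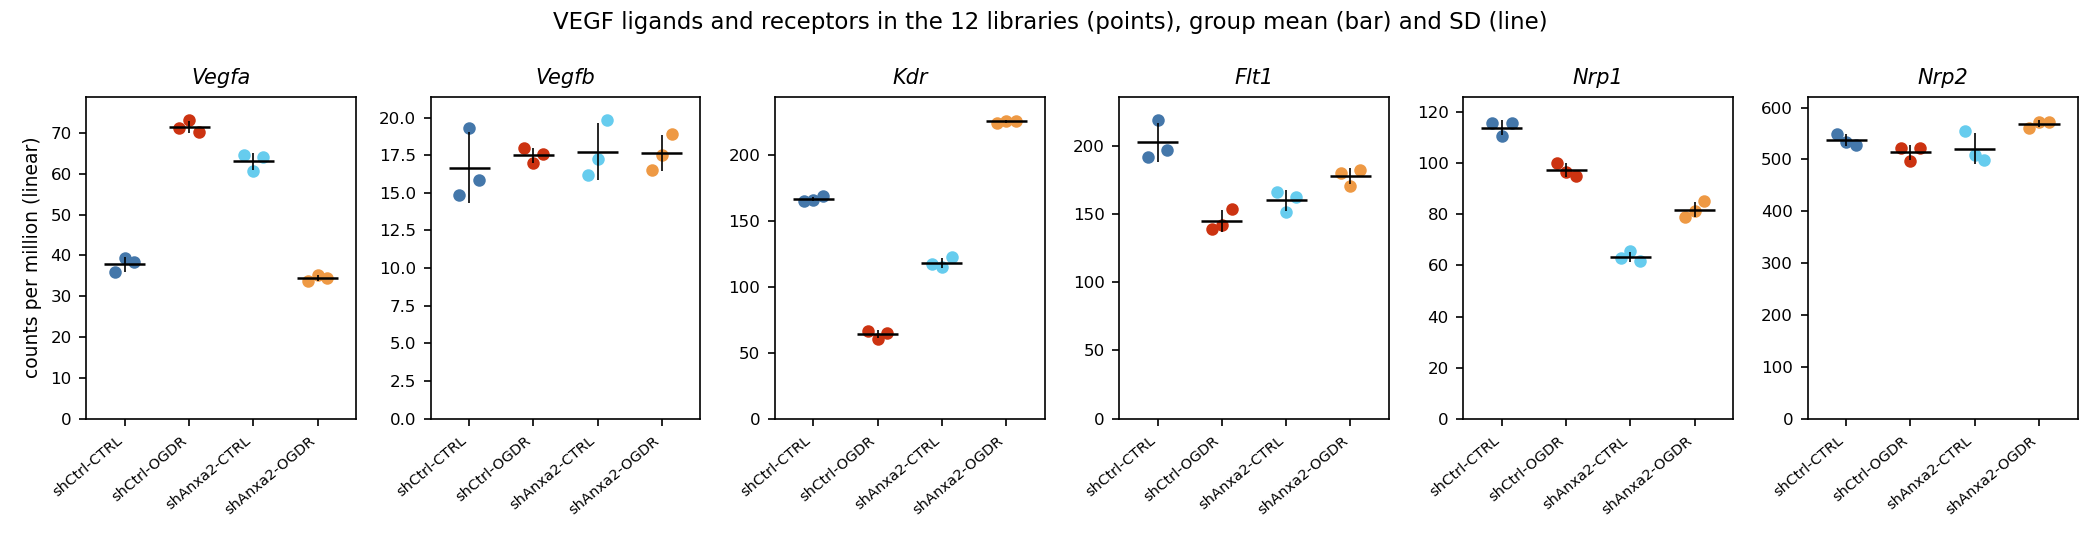
CPM of the VEGF ligands Vegfa and Vegfb and the receptors Kdr, Flt1, Nrp1 and Nrp2 in the 12 libraries (points; linear axes from 0, scaled per gene), with the group mean (bar) and SD (line). Kdr is lowest in shCtrl-OGDR, at 60.7 to 66.9 CPM, where Vegfa is highest.

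The receptors of VEGF did not follow the ligand. Kdr, the main signalling receptor of VEGF-A, was at 166, 166 and 169 CPM in shCtrl-CTRL, 66.9, 60.7 and 65.2 in shCtrl-OGDR, 117, 115 and 122 in shAnxa2-CTRL, and 225, 226 and 226 in shAnxa2-OGDR. The groups did not overlap, and their order was the inverse of that of Vegfa. Kdr fell by 1.38 on the log2 scale with OGD/R in shCtrl cells (SE 0.0474, adjusted p = 3.7e-17, edgeR) and rose by 0.93 in shAnxa2 cells (SE 0.0459, adjusted p = 1.13e-13, edgeR). Flt1, a high-affinity VEGF receptor, changed by -0.48 and 0.15, and the co-receptor Nrp1 by -0.23 and 0.37, in shCtrl and shAnxa2 cells respectively, all called by edgeR. Of the 8 VEGF ligands and receptors listed, 5 were tested, of which OGD/R lowered 3 and raised 0 in the shCtrl line, and raised 4 and lowered 0 in the shAnxa2 line. Over all tested genes 31.0% were lowered and 32.4% raised in the shCtrl line, and 28.2% raised and 26.8% lowered in the shAnxa2 line. Vegfb, a ligand not known as a HIF target, differed by less than the spread between replicates, with a log2 fold change of 0.07 (adjusted p = 0.564, edgeR) in shCtrl cells and -0.01 (adjusted p = 0.928, edgeR) in shAnxa2 cells.

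Adm (ENSMUSG00000030790; chromosome 7, 110226868 to 110229027, plus strand) encodes adrenomedullin, a vasodilator peptide. It was counted 5, 6 and 6 times in shCtrl-CTRL, 4, 11 and 6 times in shCtrl-OGDR, 2, 14 and 6 times in shAnxa2-CTRL, and 0, 3 and 2 times in shAnxa2-OGDR. The shCtrl-OGDR and shAnxa2-CTRL libraries spanned the range of shCtrl-CTRL, shAnxa2-OGDR was lowest but overlapped shAnxa2-CTRL, and the gene was left out of the main test as too low. The ratio of summed counts of shCtrl-OGDR over shCtrl-CTRL, scaled by library size, was 1.36 (exact 95% interval 0.683 to 2.74, counting error only). That interval holds both no change and the 1.89-fold of Vegfa. A rise of that size could therefore not be told from no change at this depth, while the 3.21-fold of Bnip3 lies above the interval. For shAnxa2-CTRL over shAnxa2-OGDR the ratio was 4.33 (1.6 to 14.6). Without the filter on low counts, Adm changed with OGD/R in shAnxa2 cells by -2.09 on the log2 scale (SE 0.854, adjusted p = 0.0376, edgeR over 16198 genes), and in shCtrl cells by 0.43 (SE 0.694, adjusted p = 0.661). Calcrl, the receptor that binds adrenomedullin together with a RAMP protein, was the only 1 of 6 listed partners that was tested, and it fell with OGD/R in shCtrl cells by 0.73 on the log2 scale (SE 0.0868, adjusted p = 8.38e-08, edgeR). Ramp1, Ramp2 and Ramp3 had group means of at most 0.122 CPM.

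Bnip3 (ENSMUSG00000078566; chromosome 7, 138492565 to 138511248, minus strand) and Bnip3l (ENSMUSG00000022051; chromosome 14, 67222688 to 67246326, minus strand; also called Nix) encode paralogous outer-membrane receptors that mark mitochondria for autophagy. Bnip3 was at 59.35, 65.25 and 76.6 CPM in shCtrl-CTRL, 179, 244 and 224 in shCtrl-OGDR, 171, 192 and 182 in shAnxa2-CTRL, and 38.8, 42.6 and 37.6 in shAnxa2-OGDR. The shAnxa2-OGDR libraries were the lowest, below untreated shCtrl cells without overlap. Bnip3 rose 3.21-fold with OGD/R in shCtrl cells (log2 1.68, SE 0.0879, adjusted p = 5.33e-14, edgeR). In shAnxa2 cells it fell (log2 -2.19, SE 0.0932, adjusted p = 9.89e-15, edgeR), and the interaction was -3.87 (SE 0.128, adjusted p = 7.65e-18, edgeR).

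Bnip3l was at 121, 116 and 132 CPM in shCtrl-CTRL, 203, 215 and 222 in shCtrl-OGDR, 227, 240.2 and 222 in shAnxa2-CTRL, and 125, 127 and 120.4 in shAnxa2-OGDR. Its range was narrower than that of its paralog, and shAnxa2-OGDR overlapped shCtrl-CTRL. OGD/R changed Bnip3l by 0.79 in shCtrl cells (SE 0.0523, adjusted p = 3.54e-12, edgeR) and by -0.89 in shAnxa2 cells (SE 0.0527, adjusted p = 2.52e-12, edgeR). Its interaction was -1.68 (SE 0.0742, adjusted p = 1.15e-15, edgeR). On the level per kilobase of exon, Bnip3 and Bnip3l were close in shCtrl-CTRL (29.6 and 31.9 CPM per kb), while in shCtrl-OGDR Bnip3 was higher (95.1 and 55.3) and in shAnxa2-OGDR lower (17.5 and 32.2).

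Of 11 other mitophagy genes listed, each of which was tested, 7 rose and 1 fell with OGD/R in shCtrl cells (32.4% and 31.0% of all tested genes), and 2 rose and 4 fell in shAnxa2 cells (28.2% and 26.8%), the latter near the share over all genes. Pink1, a kinase that accumulates on damaged mitochondria, rose in shCtrl cells (log2 1.10, SE 0.0609, adjusted p = 1.54e-13, edgeR) and fell in shAnxa2 cells (log2 -0.80, SE 0.0626, adjusted p = 2.41e-10, edgeR). Phb2, an inner-membrane mitophagy receptor, went the other way, with -0.22 in shCtrl cells and 0.50 in shAnxa2 cells, both called by edgeR. The autophagosome gene Map1lc3b changed by -0.01 (adjusted p = 0.943) and 0.06 (adjusted p = 0.481), by edgeR.

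Ndrg1 (ENSMUSG00000005125; chromosome 15, 66801167 to 66841489, minus strand), a stress- and hypoxia-responsive gene, had the largest interaction of the 9 tested genes. It was at 9.27, 11.7 and 11.5 CPM in shCtrl-CTRL, 63.6, 78.7 and 74.3 in shCtrl-OGDR, 49.0, 49.7 and 47.7 in shAnxa2-CTRL, and 6.99, 8.54 and 9.65 in shAnxa2-OGDR. The upper and the lower pair of groups were separated by a gap from 11.7 to 47.7 CPM. Ndrg1 rose 6.63-fold with OGD/R in shCtrl cells (log2 2.73, SE 0.0946, adjusted p = 3.82e-17, edgeR). It fell in shAnxa2 cells (log2 -2.54, SE 0.103, adjusted p = 6.4e-15, edgeR), and the interaction was -5.26 (SE 0.139, adjusted p = 1.41e-19, edgeR). Untreated shAnxa2 cells had 4.48-fold more Ndrg1 mRNA than untreated shCtrl cells (adjusted p = 4.58e-15, edgeR). Ndrg3, its paralog, changed by 0.52 in shCtrl cells and -0.49 in shAnxa2 cells, both called by edgeR, and Ndrg2 was too low to test.

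Ankrd37 (ENSMUSG00000050914; chromosome 8, 46449939 to 46458744, minus strand) encodes an ankyrin-repeat protein and is a known HIF-1 target. It was counted 59, 64 and 119 times in shCtrl-CTRL, 102, 136 and 112 times in shCtrl-OGDR, 64, 78 and 68 times in shAnxa2-CTRL, and 24, 44 and 43 times in shAnxa2-OGDR. In CPM, shCtrl-CTRL replicate 3 at 4.37 lay inside the range of shCtrl-OGDR, at 3.99 to 5.74, and the shAnxa2-OGDR libraries were lowest at 1.22 to 2.085. OGD/R changed Ankrd37 by 0.68 in shCtrl cells (SE 0.211, adjusted p = 0.00694, edgeR) and by -0.90 in shAnxa2 cells (SE 0.258, adjusted p = 0.00467, edgeR). The interaction was -1.59 (SE 0.333, adjusted p = 0.000177, edgeR). Between untreated lines it was not called (log2 0.05, adjusted p = 0.878, edgeR), with an approximate 95% interval from -0.40 to 0.49. Ankrd37 overlaps Ufsp2 on the opposite strand, which was at 83.5 to 136 CPM in group means and moved the same way (log2 0.70 and -0.55 for OGD/R in shCtrl and shAnxa2 cells), and without strand-specific counting the reads of both cannot be told apart.

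Groups were also compared across line and treatment. The mean levels of Egln1, Vegfa, Bnip3, Bnip3l and Ndrg1 in untreated shAnxa2 cells lay nearer to those of shCtrl cells after OGD/R than to those of untreated shCtrl cells. Those of Egln3 and Ankrd37 lay nearer to untreated shCtrl cells, at 0.4895 CPM against 0.264 and 1.43 for Egln3 and at 3.19 CPM against 3.06 and 4.97 for Ankrd37. In the comparison of shAnxa2-CTRL with shCtrl-OGDR, 5 of 10 genes were lower and 1 higher, where 22.0% and 22.1% of tested genes were called. With the 1.5-fold limit 2 were lower against 4.22%, and 0 higher against 3.54%, while 4 lay wholly below (26.3%) and 2 wholly above (25.9%). Each count of lower genes includes Egln3, which passed the filter only through shCtrl-OGDR. The differences were -1.50 for Egln3 (adjusted p = 0.000818), -0.57 for Ndrg1 (adjusted p = 5.65e-06) and -0.18 for Vegfa (adjusted p = 0.00878), by edgeR on the log2 scale. Bnip3 was called lower (-0.25, adjusted p = 0.0198) but lost the call without shCtrl-OGDR replicate 2 (adjusted p = 0.188) or 3 (0.0684) or shAnxa2-CTRL replicate 1 (0.087), and with DESeq2 (0.114). Ankrd37 was called lower (-0.64, adjusted p = 0.0194, edgeR) but lost the call without shCtrl-OGDR replicate 2 (0.0601) or 3 (0.0798) or shAnxa2-CTRL replicate 3 (0.0939). Hif1a was higher by 0.22 (adjusted p = 0.00381, edgeR). Without shCtrl-OGDR replicate 2, 3 genes were lower and 2 higher, and without shCtrl-OGDR replicate 3, 3 were lower.

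For shAnxa2-OGDR against shCtrl-CTRL, 4 of 10 genes were lower and 0 higher, where 18.4% of tested genes were called lower and 21.5% higher. With the 1.5-fold limit 3 were lower against 3.21%, and 0 higher against 2.74%, while 4 lay wholly below (22.5%) and 0 wholly above (26.8%). Bnip3 was lower by -0.76 (SE 0.0947, adjusted p = 9.94e-07, edgeR), and this call held with each library left out. The call of Ndrg1 (-0.37, adjusted p = 0.0138) was lost without shCtrl-CTRL replicate 2 (0.0667) or 3 (0.0573) or shAnxa2-OGDR replicate 1 (0.0924), by edgeR. That of Ankrd37 (-0.86, adjusted p = 0.00905) was lost without shCtrl-CTRL replicate 3 (-0.50, adjusted p = 0.124) or shAnxa2-OGDR replicate 1 (-0.69, adjusted p = 0.0514), by edgeR. That of Egln3 (-1.74, adjusted p = 0.0456) was lost without shCtrl-CTRL replicate 2 or 3, shCtrl-OGDR replicate 2, shAnxa2-CTRL replicate 2 or any shAnxa2-OGDR replicate (adjusted p from 0.0502 to 0.13), by edgeR. With all libraries kept, the Egln3 call was also lost by edgeR with no filter (0.0664) or only the groups compared (0.0719), and by DESeq2 (0.0579). The count was 2 without shCtrl-CTRL replicate 2, and 1 without shCtrl-CTRL replicate 3 or shAnxa2-OGDR replicate 1. Bnip3l differed by 0.01 (approximate 95% interval -0.09 to 0.12) and Egln1 by 0.13 (-0.02 to 0.27). Over all tested genes, the mean distance between libraries (root mean square difference of log2(CPM + 0.1)) was 0.416 for shCtrl-CTRL with shAnxa2-OGDR and 0.453 for shCtrl-OGDR with shAnxa2-CTRL, against 0.584 between the shCtrl groups, 0.496 between the shAnxa2 groups and 0.252 to 0.28 within groups.

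Of 20 other regulators of HIF listed, 17 were tested, and 3 rose and 4 fell with OGD/R in shCtrl cells, no larger a share than the 32.4% and 31.0% of all tested genes, with a median of -0.00961 on the log2 scale beside 0.00448 for all tested genes. Arnt, the β subunit, rose by 0.44 (adjusted p = 6.08e-07), its low paralog Arnt2 by 0.75 (adjusted p = 0.00477) and Rack1, a competitor of HSP90 for HIF-1α, by 0.21 (adjusted p = 0.000151), each by edgeR. Epas1, which encodes HIF-2α, changed by -0.43 (adjusted p = 5e-05), the VHL-complex subunit Eloc by -0.39 (adjusted p = 1.53e-05), the coactivator Crebbp by -0.34 (adjusted p = 2.28e-05) and Hif1an, the asparaginyl hydroxylase FIH, by -0.32 (adjusted p = 5.48e-06), each by edgeR. In shAnxa2 cells 7 rose and 3 fell, beside 28.2% and 26.8% of all tested genes, and the signs were opposite for Arnt (-0.18), Arnt2 (-1.34), Rack1 (-0.11), Epas1 (0.25), Crebbp (0.43) and Hif1an (0.27). Egln2, the prolyl hydroxylase that is not known as a HIF target, changed by -0.10 in shCtrl cells (adjusted p = 0.132, edgeR) and by 0.37 in shAnxa2 cells (adjusted p = 1.41e-05, edgeR), the reverse of Egln1. Vhl changed by -0.14 (adjusted p = 0.0951) and -0.11 (adjusted p = 0.188), by edgeR.

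**Figure D4:**
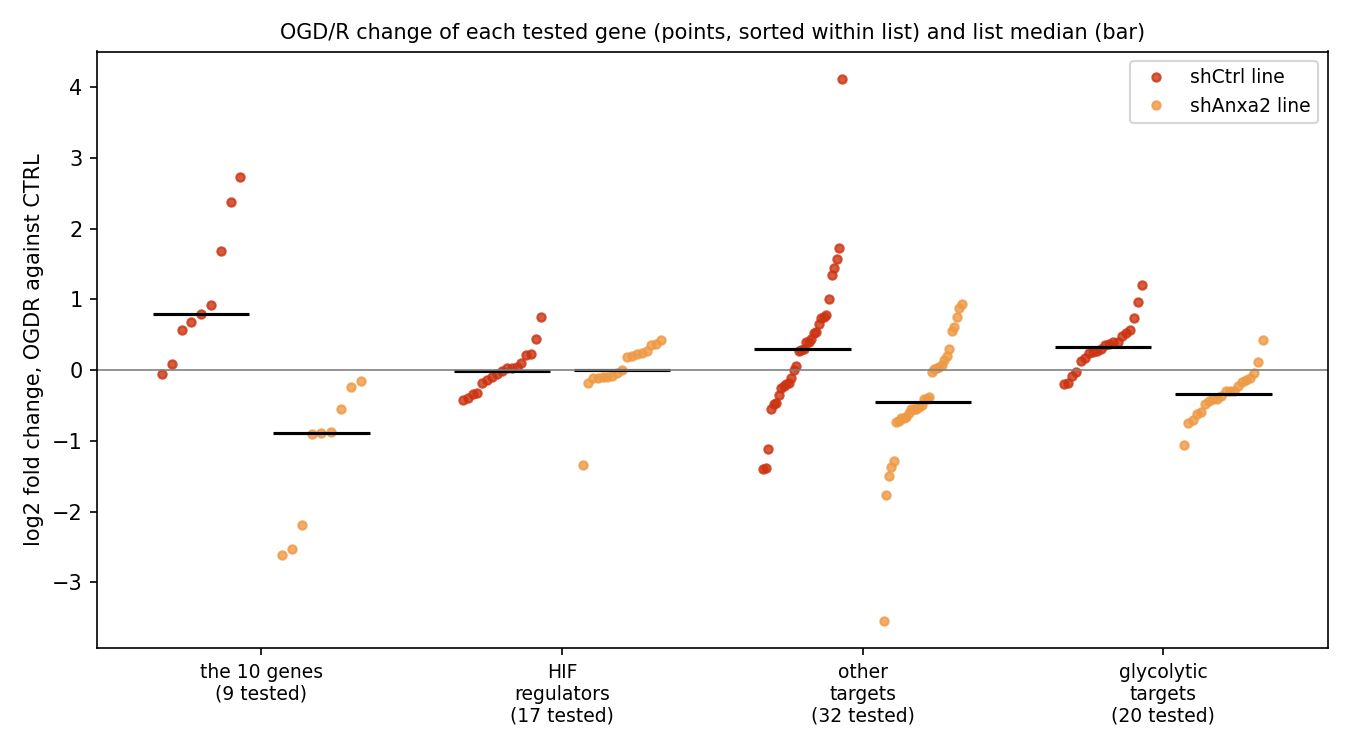
Log2 fold change with OGD/R of each tested gene in the shCtrl and shAnxa2 lines (points), with the list median (bar), for the 10 genes described and 3 comparison lists. The medians in shCtrl and shAnxa2 cells are 0.79 and -0.89 for the 9 tested genes, -0.00961 and 0.00497 for HIF regulators, 0.29 and -0.45 for other targets, and 0.32 and -0.34 for glycolytic targets.

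Of 40 other non-glycolytic hypoxia targets, 32 were tested, and 17 rose and 11 fell with OGD/R in shCtrl cells, while 7 rose and 17 fell in shAnxa2 cells, with medians of 0.29 and -0.45. Over all tested genes 32.4% rose and 31.0% fell in shCtrl cells and 28.2% rose and 26.8% fell in shAnxa2 cells, so the 11 falls in shCtrl cells and the 7 rises in shAnxa2 cells were near the share over all genes. The largest rises in shCtrl cells were of Nos2, the inducible nitric oxide synthase (log2 4.12), Rora, a nuclear receptor (log2 1.72), and Ddit4, an inhibitor of mTORC1 (log2 1.57), and in shAnxa2 cells these changed by -3.55, -1.77 and -1.49. The largest falls in shCtrl cells were of Tfrc, the transferrin receptor (log2 -1.40), Kdr (log2 -1.38) and Car12, a carbonic anhydrase (log2 -1.12), and these rose in shAnxa2 cells by 0.61, 0.93 and 0.87. All 12 changes were called by edgeR, with adjusted p of at most 2.1e-09. Of the 20 glycolytic targets, 16 rose and 2 fell in shCtrl cells, and 1 rose and 17 fell in shAnxa2 cells, with medians of 0.32 and -0.34, beside the same shares over all genes. Gys1, glycogen synthase of muscle type (log2 1.2), Aldoc, an aldolase (log2 0.97), and Pdk1, a pyruvate dehydrogenase kinase (log2 0.74), rose most, and Pfkfb3 (log2 -0.20) and Slc16a3 (log2 -0.18), a glycolytic regulator and a lactate exporter, fell, each called by edgeR.

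Likeness across the 12 libraries was the root mean square difference of centred log2(CPM + 0.1), among 8581 genes. Values were not scaled, so it weighs the size of changes as well as their direction, and genes that move little lie near each other. The genes nearest to Hif1a were Selenof, Dzip3, Cul1, Acsl4 and Gdi2, at 0.0544 to 0.0582. Of the other genes described, Kdm3a ranked 420 in likeness to Hif1a, and Ndrg1 ranked 8573. The genes nearest to Vegfa by this measure were Rab3d, Tmco6, Cryz, Btg1 and Cd47, at 0.0863 to 0.0944, and Bnip3l ranked 76. Hif1a ranked 3165 for Vegfa, ahead of Bnip3 at 6074 and Ndrg1 at 8450. The group means of Bnip3 and Ndrg1 have the same order as those of Vegfa, but a wider range. All of these points share the same 12 libraries and their groups.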

How the data were processed

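RNA of BV2 cells was sequenced in 12 libraries, 3 per group, grouped by sample name. The authors deposited raw counts of reads per gene for 21834 genes. The submitters' processing notes name HISAT2 2.0.4 and mm39, and the counting tool and its use of strand are not given in the sources used here. The deposited table also holds 12 per-sample columns of counts normalized by DESeq2, which were not used. Total counts per library were 19521877 to 27288843. The study's methods speak of 3 biological replicates, each made up of 3 technical replicates, and do not say how these map onto the libraries. Replicates differed by more than counting error.

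The 11626 genes that reached 0.5 CPM in 3 or more libraries were tested with edgeR 4.0.16 in R 4.3.3, by TMM, 1 quasi-likelihood model over the 12 libraries and 7 contrasts, with Benjamini-Hochberg adjustment over the genes tested. SE is the log2 fold change over the square root of F, and approximate intervals use it. A second call adds a fold of at least 1.5. Permutations of 3 against 3 libraries cannot go below p = 0.1. On simulated counts for OGD/R in shCtrl cells (11501 genes) 87.9%, 88.9% and 100% of the 58, 72 and 66 genes changed 1.5-, 2- and 4-fold were recovered. The simulation changed only these few genes and gave every gene the same biological coefficient of variation, 5.35%. In the data far more genes changed and the spread differs by gene, so these shares are not the power of the real tests. Exon lengths are from GENCODE vM21. Likeness used genes of at least 10 CPM, and 3 genes per direction with at least 1 CPM were named per list, with partners and paralogs of the 10 genes. Map1lc3b was named after its values were seen. A result named by this rule among the mitophagy genes is not reported here. The 10 genes and the lists were chosen with earlier results of these data known. The alternatives were median-of-ratios and upper-quartile factors, no filter, a filter of 1 CPM, DESeq2 1.42.0, limma voom 3.58.1, a replicate block, fits of only the groups compared, and each library left out. Python 3.11.15, numpy 2.4.6, pandas 2.3.3, scipy 1.17.1 and matplotlib 3.10.9 were used.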

Additional observations from a re-analysis of the deposited data

Results flagged for a closer look

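The change with OGD/R differed between the shAnxa2 and shCtrl lines for 8 of the 9 tested genes, by the interaction test of edgeR. Over all tested genes, 35.1% were called with a more negative change in shAnxa2 cells and 34.9% in the other direction. The interactions, on the log2 scale and in the order of size, were -5.26 for Ndrg1, -4.99 for Egln3, -3.87 for Bnip3, -1.79 for Vegfa, -1.68 for Bnip3l, -1.59 for Ankrd37, -1.11 for Egln1 and -0.24 for Kdm3a. Egln3 rests on counts of 1, 2 and 2 in shAnxa2-OGDR and passed the filter only through shCtrl-OGDR, where it is highest. The call of Kdm3a was lost without any 1 of 5 libraries.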

How the results depend on the processing

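Each of 63 values, 9 genes in 7 comparisons, was recomputed under 20 alternatives, giving 1251 values, since the fit of only the groups compared could not be made for the interaction. Of these, 1182 kept direction and side of the threshold, 30 lost the call, 29 gained it and 10 changed sign, none of them called in either setting. Counts of genes called moved by over 1.5 times only in the 2 comparisons across lines and treatments. Leaving out 1 library gave 1 to 2 genes higher and 3 to 5 lower for shAnxa2-CTRL against shCtrl-OGDR, and 1 to 5 lower for shAnxa2-OGDR against shCtrl-CTRL. The sign changes were these. Between untreated lines, leaving out 1 library moved Ankrd37 from -0.115 to 0.407, below 0 without shCtrl-CTRL replicate 1 (-0.0847) or 2 (-0.115) or shAnxa2-CTRL replicate 2 (-0.0835). After OGD/R, Hif1a ranged from -0.0841 to 0.0486 between lines, above 0 without shAnxa2-OGDR replicate 3. Between shAnxa2-CTRL and shCtrl-OGDR, Kdm3a ranged from -0.0706 to 0.0889, below 0 without shCtrl-OGDR replicate 1. Between shAnxa2-OGDR and shCtrl-CTRL, Bnip3l was -0.00807 with no filter and -0.00497 with only the groups compared, and ranged from -0.0275 to 0.0649 with 1 library left out. The cause was not tested.

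The replicate numbers did not pair the libraries, since correlations of deviations between same-numbered libraries were -0.0513 to 0.135. A replicate block changed 2 calls, Kdm3a for OGD/R in shAnxa2 cells (-0.16, adjusted p = 0.0422, edgeR) and the interaction of Hif1a (-0.18, adjusted p = 0.0453, edgeR), and left the other 61 as they were. Depth limits Adm and Egln3.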
